A study of Mus musculus with 9 samples.

Results

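The genes described here hold epithelial cells of the mouse uterus to each other. They are 38 genes of cell junctions, listed for the proteins they encode, out of 18193 genes that the arrays could read. The list was made with earlier results of these data known, so the counts over it are descriptions. The 38 genes comprise 10 claudins, 7 other genes of tight junctions, 5 genes of adherens junctions, 10 genes of desmosomes, 3 gap junction genes and 3 genes of apical polarity and sorting. All 38 were measured, and no filter on low values was applied.

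Tight junctions seal the space between epithelial cells near their apical side, and the claudins form the strands of the seal and decide which ions pass it. Adherens junctions and desmosomes lie below them and tie the actin and keratin filaments of neighbouring cells together through cadherins, while gap junctions are channels that pass small molecules from cell to cell. In the uterus before implantation the luminal epithelium loses some of its polarity and its junctions are remodelled, under the control of estrogen and progesterone, so that the embryo can attach.

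RNA of whole uteri was measured on gestation day (GD) 3.5 on 9 arrays, 3 in each of 3 groups of female mice mated with C57BL/6 males. The single mutant, Mig-6 d/d, lost the adaptor gene Mig-6 (symbol Errfi1), whose product holds ERBB receptors in check. The double mutant, labelled Mig-6 d/d Erbb2 d/d, lost the ERBB receptor gene Erbb2 as well. Cre recombinase expressed from 1 allele of the progesterone receptor gene (Pgr cre/+) removed the floxed genes (Mig-6 f/f and Erbb2 f/f), so the deletions were not limited to the epithelium, since stroma and muscle of the uterus also express Pgr. Controls carried Mig-6 f/f, alone or together with Erbb2 f/f, and the sources used here do not tell these genotypes apart on the arrays. All mice had a mixed background of C57BL/6 and 129P2/OlaHsd, and their age is 8 to 12 weeks by the methods and 2 weeks by the labels. RNA of several mice was pooled per genotype, and the sources used here do not state separate pools for the arrays of a group, so p-values may measure technical spread alone.

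The arrays gave intensities on a linear scale, with a median of 7.87 to 8.24 per array, and each gene was read at 1 probe set, a group of short probes, the one of highest mean log2 intensity. All groups entered a single limma model on the log2 scale. A call, increased or decreased, needed a Benjamini-Hochberg adjusted p under 0.05 across 45037 probe sets and more than 1.5-fold change. Levels of different genes are not set against each other, since probes differ in brightness. Of the uterine receptor genes, Esr1 read 1327 to 1975 over the 9 arrays. Pgr read 1065 to 1613 in control, 588 to 873 in the single mutant and 729 to 986 in the double mutant. Every array of both mutants thus lay below control for Pgr. Its log2 changes of -0.74 and -0.58 against control were not called (adjusted p = 0.0734 and 0.448, limma). Both mutants carried Pgr cre/+, while the controls are described by floxed alleles alone, and an effect of this on Pgr was not tested. Errfi1 read 454, 564 and 286 in control, 76.0, 29.8 and 40.3 in the double mutant, and 15.1, 15.96 and 255 in the single mutant. Replicate 3, a library labelled as the single mutant, thus lay near control for the deleted gene, though the sources used here do not place these probes relative to the deletion, and the counts below are also given without it. On the junction genes this library read with the others of its group: their mean log2 intensity lay 0.99 above the control mean there, against 0.96 and 0.77 in replicates 1 and 2.

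Most of the junction genes were higher in the uterus of the single mutant. In the double mutant the log2 changes of the 38 against control ranged from -1.24 to 0.47, with a median of -0.15. Confidence intervals there were wide for many of them, so equal levels are not shown. Against control, 12 of the 38 genes were increased in the single mutant (limma), where 2.54% of all genes were increased, and 0 were decreased, where 1.80% of all genes were. The 12 were Cldn7, Cldn10, Marveld2, Tjp3, Cgn, Lsr, Cdh1, Dsc2, Pkp2, Pkp3, Perp and Crb3. The median log2 change of the 38 genes was 0.87, against -0.03 over all genes, and 33 of 38 were above 0. Every single-mutant array lay above every control array for 21 of the 38 genes, where this held for 11.6% of all genes, and the reverse held for 0 of them, where it held for 14.1% of all genes.

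From the single mutant to the double mutant, 22 of the 38 genes were decreased, where 3.75% of all genes were, and 0 were increased, where 3.73% of all genes were (limma). These 22 held all 12 genes that were increased against control, and also Cldn2, Cldn23, Ocln, F11r, Epcam, Dsp, Dsg2, Gjb2, Pard6b and Mal2. Every array of the double mutant lay below every single-mutant array for 26 of the 38 genes, against 14.2% of all genes, and above for 0, against 18.6%. The 2 comparisons share the single-mutant arrays, and both comparisons against control share the control arrays. In 16 of the 38 genes no comparison gave a call. In whole uterus, fewer cells of a type and less RNA per cell cannot be told apart, so each change stands for the tissue and not for a single epithelial cell.

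**Figure D1:**
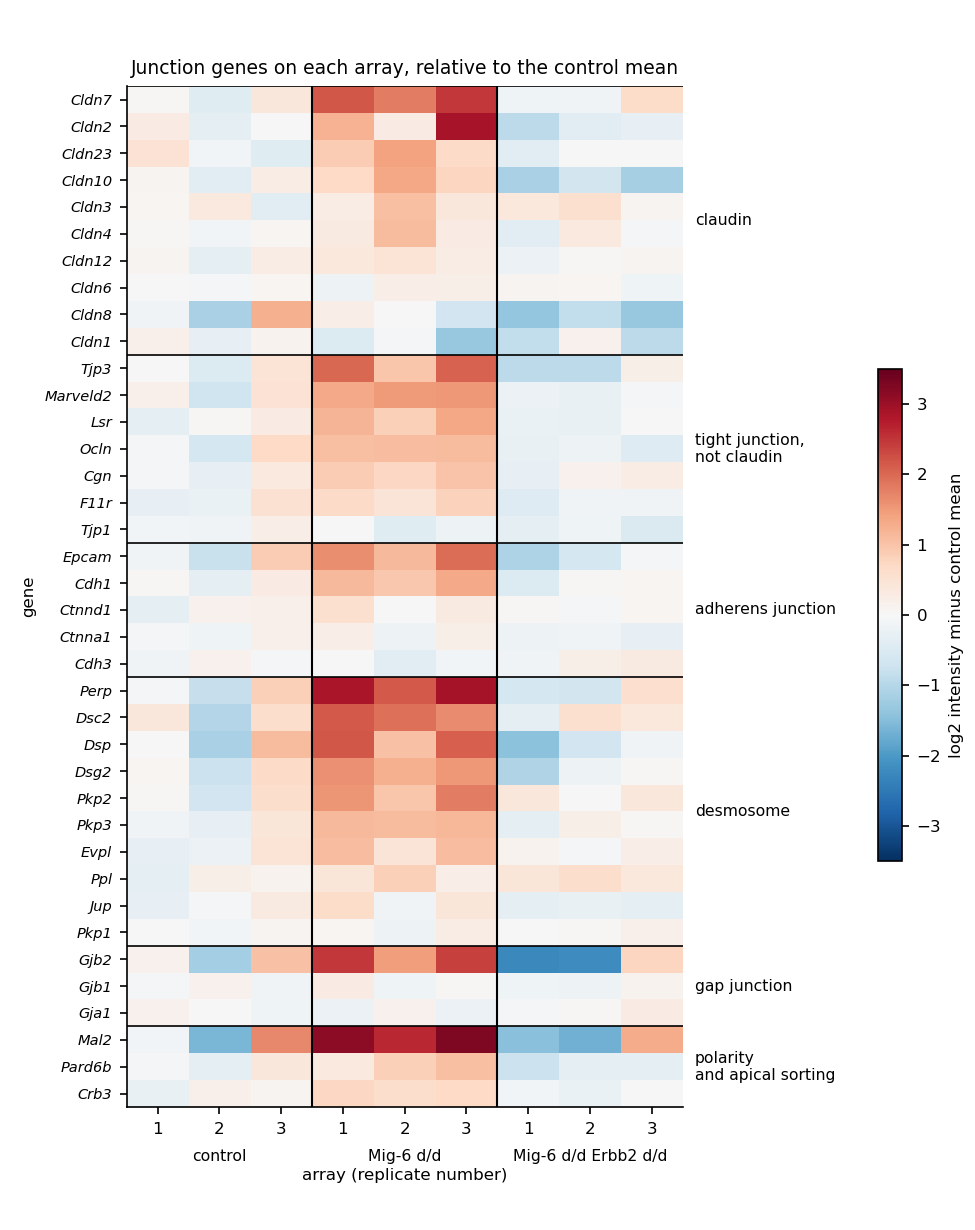
Heat map of the 38 junction genes (rows, grouped by junction) on the 9 arrays (columns, by group and replicate number). Colour gives the log2 intensity minus the mean log2 intensity of the 3 control arrays of that gene. Most rows are red in the 3 columns of Mig-6 d/d, the single mutant, and near white or blue in the double mutant, while Tjp1, Ctnna1, Cdh3, Pkp1, Cldn6, Gjb1 and Gja1 stay near white throughout.

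Promoter sequences were looked at because these genes moved together. RefSeq windows (assembly GRCm38.p6) from 250 bases before to 50 bases after a start were given for 24 of the 38 genes. The E-box letters CACCTG, which factors of the ZEB and SNAI families are known to bind, were found on either strand in 15 of these 24 genes (62.5%), against 22.6% of 27025 genes with a window and 22.9% of 13273 protein-coding genes that the arrays read. The stretches below show the matches in 5 junction genes that fell from the single mutant to the double mutant, and the site of Cgn named further on. Each runs 5′ to 3′ on the gene's own strand, holds only bases before a start, and has the searched letters in capitals, CACCTG or its reverse complement CAGGTG. Cldn7 is shown at chr11:69965271-69965420 (plus strand), Crb3 at chr17:57062051-57062200 (plus strand), Epcam at chr17:87635779-87635978 (plus strand), Lsr at chr7:30973520-30973719 (minus strand), Tjp3 at chr10:81291268-81291387 (minus strand) and Cgn at chr3:94786483-94786562 (minus strand).
Cldn7: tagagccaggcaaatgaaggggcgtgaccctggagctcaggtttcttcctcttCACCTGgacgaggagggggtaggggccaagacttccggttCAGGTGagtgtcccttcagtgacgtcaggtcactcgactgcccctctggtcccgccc
Crb3: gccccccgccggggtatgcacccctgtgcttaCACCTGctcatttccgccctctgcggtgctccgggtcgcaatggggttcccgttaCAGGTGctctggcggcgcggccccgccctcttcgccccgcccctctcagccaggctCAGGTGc
Epcam: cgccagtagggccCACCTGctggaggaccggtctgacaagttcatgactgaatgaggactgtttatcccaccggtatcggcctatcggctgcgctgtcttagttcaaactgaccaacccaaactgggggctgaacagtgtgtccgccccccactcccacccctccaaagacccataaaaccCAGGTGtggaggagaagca
Lsr: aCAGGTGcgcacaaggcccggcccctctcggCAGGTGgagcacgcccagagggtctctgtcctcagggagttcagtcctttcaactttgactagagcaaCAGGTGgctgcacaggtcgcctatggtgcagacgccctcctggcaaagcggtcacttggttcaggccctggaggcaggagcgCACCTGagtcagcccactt
Tjp3: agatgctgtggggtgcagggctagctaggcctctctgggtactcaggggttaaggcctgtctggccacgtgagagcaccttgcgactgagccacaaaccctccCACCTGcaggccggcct
Cgn: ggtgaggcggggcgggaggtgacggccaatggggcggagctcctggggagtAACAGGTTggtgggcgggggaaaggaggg

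These stretches hold 2 matches in Cldn7, 3 in Crb3, 2 in Epcam, 4 in Lsr and 1 in Tjp3. The other 10 genes with the E-box in a window were Cldn3, Cldn4, Cldn6, Dsp, F11r, Gjb1, Gjb2, Marveld2, Ocln and Pard6b. Among the 22 genes that fell from the single mutant to the double mutant, 14 had a window and 11 of these held the E-box (78.6%). The others that fell had no window, namely Cldn23, Cdh1, Dsg2, Dsc2, Pkp2, Pkp3, Perp and Mal2. Among the genes with no call 10 had a window and 4 held it (40%). Of these 4, Cldn6 and Gjb1 read below the median of every array. The share was 71.4% (10 of 14) in epithelial marker genes that are not junction genes and 9.09% (1 of 11) in stromal marker genes. The letters GGGCGG of the GC box were found in 20 of the 24 genes (83.3%), against 38.2% of all genes. The AP-1 letters TGANTCA were found in 4 (16.7%), namely Cldn4, F11r, Gja1 and Lsr, against 9.0%. The letters AACNGGTT, known from sites of Grainyhead-like factors, were found in 1 (4.2%), which was Cgn, against 2.3%. All 4 motifs were searched on both strands, and a match of the E-box can share bases at its end with one of the AP-1 or GC box letters but not with one of AACNGGTT. A match describes the letters of a window and shows no binding.

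Among the claudins, Cldn7 and Cldn10 rose in the single mutant and the family did not move as one. Cldn7 encodes a claudin that is also found along the lateral membrane, where it binds EPCAM. Cldn7 read 287, 210.4 and 369 in control, 1266, 983 and 1567 in the single mutant, and 252, 256 and 441 in the double mutant. All single-mutant arrays lay far above the other 6, which overlapped. The increase was 4.44-fold, a log2 change of 2.15 (SE 0.27, adjusted p = 0.00819, limma), and from the single mutant to the double mutant Cldn7 fell by 2.03 on the log2 scale (adjusted p = 0.00358, limma). Both calls held with each of the 9 arrays left out, and for the increase against control Cldn7 was the only junction gene of which this was true.

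Cldn10, whose isoforms form ion-selective pores, read 207, 149.5 and 232 in control, 312, 489 and 323 in the single mutant, and 87.2, 122 and 85.7 in the double mutant. The 3 groups did not overlap, with the double mutant lowest. Cldn10 rose by a log2 change of 0.93 in the single mutant (SE 0.22, adjusted p = 0.0492, limma), a call that was lost with 8 of the 9 arrays left out in turn, at log2 changes of 0.72 to 1.06. It fell by 1.92 on the log2 scale to the double mutant (adjusted p = 0.0021, limma), with every array left out in turn. Against control, Cldn10 in the double mutant had a log2 change of -0.99 (adjusted p = 0.14, limma), the lowest p of the 38 genes in that comparison.

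Cldn2 and Cldn23 were decreased only between the mutants. Cldn2, which encodes a pore for cations and water, read 15.2, 9.96 and 12.4 in control, 28.6, 15.2 and 91.1 in the single mutant, and 6.57, 9.56 and 10.01 in the double mutant. The value of 91.1 came from the library labelled as single-mutant replicate 3, and single-mutant replicate 2 lay level with the highest control array. Cldn2 fell by 1.99 on the log2 scale to the double mutant (adjusted p = 0.0453, limma), a call lost with 7 of the 9 arrays left out in turn, and its log2 change in the single mutant against control was 1.47 (adjusted p = 0.153, limma). Cldn23 read 182, 119 and 95.4 in control, 238, 337 and 203 in the single mutant, and 97.4, 128 and 128 in the double mutant. Its single-mutant arrays lay above all others. Cldn23 fell by 1.12 on the log2 scale to the double mutant (adjusted p = 0.0259, limma), and its log2 change against control was 0.99 in the single mutant (adjusted p = 0.0589, limma).

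The other 6 claudins had no call. Cldn3 and Cldn4, barrier-forming claudins whose genes are neighbours on mouse chromosome 5, both had a log2 change of 0.57 in the single mutant (adjusted p = 0.23 and 0.222, limma). Cldn3 read 453 to 1236 over the 9 arrays and Cldn4 46.2 to 130.2, and both were highest in single-mutant replicate 2. From the single mutant to the double mutant the log2 change was -0.22 for Cldn3 and -0.61 for Cldn4. Cldn12 ranged from 81.8 to 146 and had a log2 change of 0.37 in the single mutant. Cldn1, a sealing claudin of stratified epithelia, ranged from 15.1 to 42.6 and was lower than control in both mutants, at log2 changes of -0.61 and -0.55 (adjusted p = 0.394 and 0.797, limma). Cldn8, known from tight epithelia such as the collecting duct, ranged from 8.89 to 53.9, with both the highest and a low value of 10.2 among the control arrays. Cldn6 read 4.31 to 5.74, below the median of every array.

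Of the 7 tight junction genes other than claudins, 4 were increased in the single mutant, where 2.54% of all genes were. To the double mutant 6 of the 7 were decreased, where 3.75% of all genes were (limma). Marveld2 encodes tricellulin, which seals the points where 3 cells meet, and its gene neighbours Ocln on mouse chromosome 13. Marveld2 read 25.7, 14.2 and 32.8 in control, 57.5, 64.2 and 65.9 in the single mutant, and 20.0, 19.0 and 21.9 in the double mutant. The single-mutant arrays lay above all others, and the double mutant lay inside the control range. Marveld2 rose by a log2 change of 1.45 (SE 0.24, adjusted p = 0.0164, limma) and then fell by 1.62 (adjusted p = 0.00584, limma). Ocln, which encodes occludin, a membrane protein of the same family, read 51.4, 35.1 and 88.5 in control, 112, 115 and 117 in the single mutant, and 45.2, 47.7 and 40.02 in the double mutant. Its single-mutant arrays were close together and above all others, while the control arrays spread widely. Its log2 change of 1.07 against control missed the threshold (adjusted p = 0.0527, limma), and Ocln fell by 1.37 on the log2 scale to the double mutant (adjusted p = 0.0146, limma).

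Lsr encodes angulin-1, the receptor that brings tricellulin to its place. It read 48.4, 63.0 and 74.4 in control, 139.9, 109 and 157 in the single mutant, and 51.6, 50.6 and 61.4 in the double mutant, with the single-mutant arrays above all others. Lsr rose by a log2 change of 1.13 (SE 0.18, adjusted p = 0.0134, limma) and fell by 1.30 (adjusted p = 0.00436, limma), so both partners of the tricellular seal moved in the same direction. Tjp3, which encodes the scaffold ZO-3, read 25.0, 18.0 and 34.9 in control, 101, 48.7 and 104 in the single mutant, and 13.3, 13.3 and 28.7 in the double mutant. Its single-mutant arrays lay above all others, with replicate 2 the lowest of them. Tjp3 rose by a log2 change of 1.68 (SE 0.38, adjusted p = 0.0413, limma) and fell by 2.22 (adjusted p = 0.00931, limma). Tjp1 encodes the related scaffold ZO-1, which is not limited to epithelia, and it read 258 to 424 over the 9 arrays, with log2 changes of -0.20 in the single mutant and -0.32 in the double mutant against control (adjusted p = 0.557 and 0.664, limma).

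Cgn, which encodes cingulin, a protein that links the tight junction to the cytoskeleton, read 15.7, 13.6 and 20.8 in control, 30.2, 27.2 and 32.7 in the single mutant, and 13.3, 18.3 and 19.6 in the double mutant. It rose by a log2 change of 0.87 (SE 0.18, adjusted p = 0.0337, limma) and fell by 0.83 (adjusted p = 0.0248, limma). Its single-mutant arrays did not overlap the others. F11r, which encodes the adhesion molecule JAM-A, read 178, 186 and 314 in control, 346, 300.4 and 379 in the single mutant, and 158, 202 and 199 in the double mutant. Control replicate 3 reached into the single-mutant range. F11r fell by 0.88 on the log2 scale to the double mutant (adjusted p = 0.0328, limma), and its log2 change in the single mutant against control was 0.64 (adjusted p = 0.124, limma).

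Of the 5 genes of adherens junctions, Cdh1 rose in the single mutant. It encodes E-cadherin, the cadherin that defines epithelial adherens junctions. Cdh1 read 386, 301 and 457 in control, 833, 726 and 949.5 in the single mutant, and 269, 384 and 394 in the double mutant. The single-mutant arrays lay above all others, and control and double mutant overlapped. Cdh1 rose by a log2 change of 1.15 (SE 0.19, adjusted p = 0.0152, limma) and fell by 1.27 (adjusted p = 0.0055, limma). Its neighbour on mouse chromosome 8, Cdh3, which encodes P-cadherin, read 18.2 to 29.0 over the 9 arrays and had log2 changes of -0.16 in the single mutant and 0.13 in the double mutant against control (adjusted p = 0.626 and 0.911, limma).

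Epcam, which encodes an epithelial adhesion molecule that stabilises claudin-7, read 458, 291 and 915 in control, 1524, 1089 and 1932 in the single mutant, and 237, 323 and 479 in the double mutant. The single-mutant arrays lay above all others, although control replicate 3 came close to the lowest of them. Epcam had a log2 change of 1.57 against control (SE 0.39, adjusted p = 0.0591, limma) and fell by 2.15 to the double mutant (adjusted p = 0.0123, limma). The catenin genes, whose products tie cadherins to the cell interior in many cell types, gave no call. Ctnna1 ranged from 983 to 1431 and Ctnnd1 from 68.5 to 127, and their log2 changes in the single mutant were 0.09 and 0.29 (adjusted p = 0.819 and 0.409, limma).

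The desmosome genes had the highest median log2 change in the single mutant of the 6 classes, 1.28. Of these 10 genes 4 were increased there, where 2.54% of all genes were. To the double mutant 6 of the 10 were decreased, where 3.75% of all genes were (limma). Perp, which encodes a tetraspan membrane protein needed for desmosome assembly, had the greatest called increase of the 38 genes. It read 38.5, 22.7 and 70.0 in control, 284, 176 and 299 in the single mutant, and 25.5, 25.0 and 58.8 in the double mutant. The lowest single-mutant array was above the highest of the other 6. Perp rose 6.25-fold, a log2 change of 2.64 (SE 0.43, adjusted p = 0.0141, limma), and fell by 2.88 on the log2 scale (adjusted p = 0.0055, limma).

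The plakophilins link desmosomal cadherins to desmoplakin. Pkp2 read 53.2, 33.0 and 80.5 in control, 152, 102 and 181 in the single mutant, and 68.8, 51.8 and 68.8 in the double mutant. It rose by a log2 change of 1.44 (adjusted p = 0.0342, limma) and fell by 1.17 (adjusted p = 0.0469, limma). Pkp3 read 17.6, 15.7 and 26.0 in control, 42.0, 41.4 and 43.0 in the single mutant, and 15.4, 22.2 and 20.0 in the double mutant. It rose by a log2 change of 1.13 (adjusted p = 0.0156, limma) and fell by 1.15 (adjusted p = 0.0081, limma). For both genes the single-mutant arrays lay above all others. Pkp1, the plakophilin of stratified epithelia, read 3.03 to 4.12, below the median of every array, and had log2 changes of 0.05 and 0.07 against control.

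Dsc2, which encodes desmocollin-2, a desmosomal cadherin, read 64.0, 24.0 and 74.5 in control, 213, 183 and 153 in the single mutant, and 38.9, 71.5 and 62.8 in the double mutant. The single-mutant arrays lay above all others. Dsc2 rose by a log2 change of 1.90 (SE 0.38, adjusted p = 0.0298, limma) and fell by 1.70 (adjusted p = 0.0275, limma). Its partner cadherin gene Dsg2 read 147, 82.7 and 223 in control, 422, 329.9 and 400.2 in the single mutant, and 67.3, 123.1 and 144 in the double mutant, again without overlap. Dsg2 had a log2 change of 1.45 against control (adjusted p = 0.0521, limma) and fell by 1.85 to the double mutant (adjusted p = 0.0145, limma). Dsp encodes desmoplakin, the anchor for keratin filaments, and read 167, 75.3 and 359 in control, 739, 339 and 699.6 in the single mutant, and 60.6, 105 and 150.4 in the double mutant. Control replicate 3 lay above single-mutant replicate 2 for Dsp, whose log2 change against control was 1.76 (SE 0.53, adjusted p = 0.104, limma), and Dsp fell by 2.51 to the double mutant (adjusted p = 0.022, limma).

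The other desmosome genes had no call. Jup, which encodes plakoglobin, a catenin shared with adherens junctions, read 22.2 to 43.0 and had a log2 change of 0.31 in the single mutant (adjusted p = 0.464, limma) and of -0.61 from there to the double mutant (adjusted p = 0.0995, limma). The plakins envoplakin and periplakin, known from cornified epithelia, gave different patterns. Evpl read 21.7 to 56.1 and had log2 changes of 0.87 in the single mutant and -0.77 from there to the double mutant (adjusted p = 0.0656 and 0.0712, limma). Ppl read 21.4 to 47.8 and had log2 changes against control of 0.50 in the single mutant and 0.47 in the double mutant (adjusted p = 0.163 and 0.538, limma), with every mutant array above the control arrays, and it was the only one of the 38 genes for which every array of the double mutant lay above control.

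**Figure D2:**
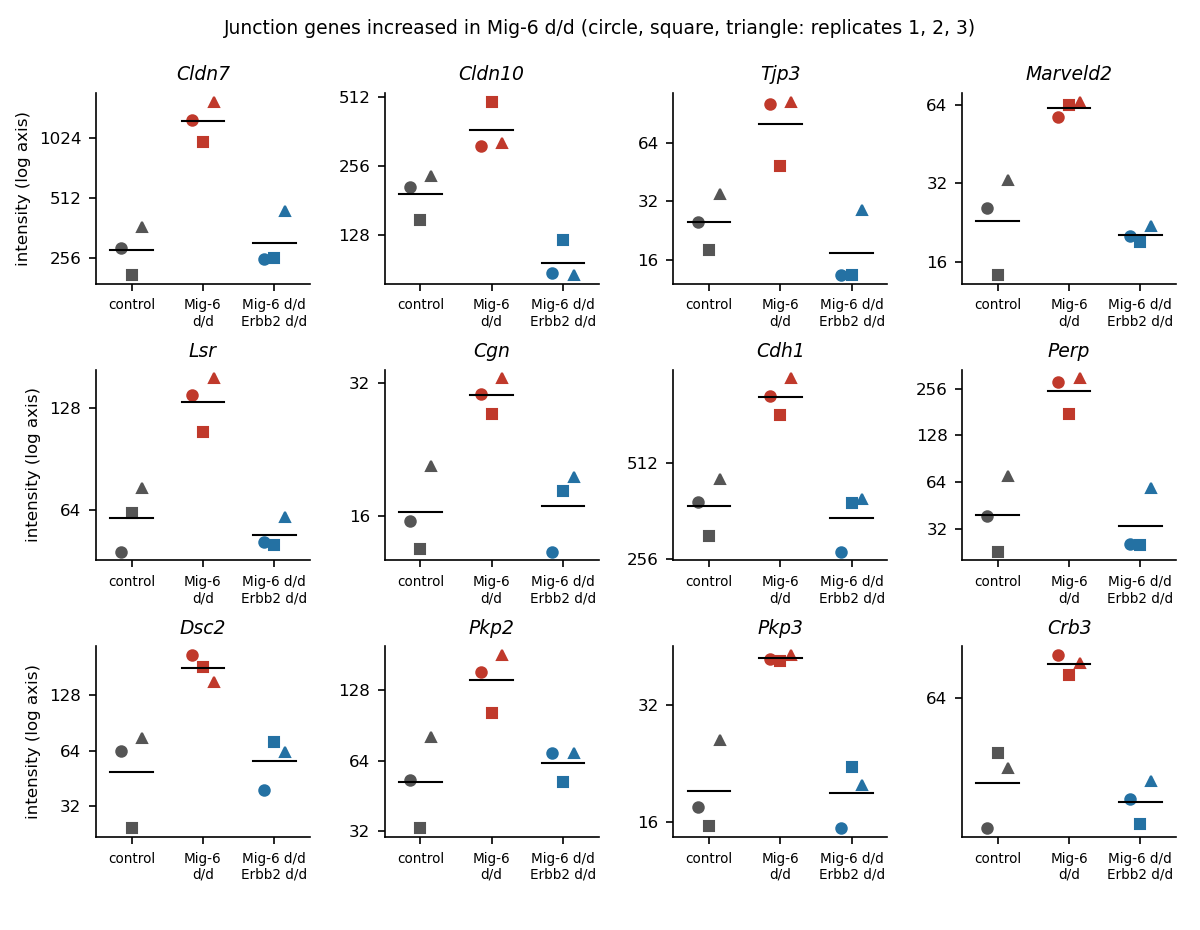
Intensities of the 12 junction genes that were increased in the single mutant against control, on a log axis, in 1 panel per gene. Points are arrays (circle, square and triangle for replicates 1, 2 and 3) and bars the geometric mean of 3 arrays. In all 12 panels the 3 single-mutant arrays lie above the 6 others, and in the panel of Cldn10 the double mutant also lies below control.

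Among the gap junction genes, Gjb2 had wide changes and wide spread. It encodes connexin 26, an epithelial channel protein of the uterus known to be regulated by ovarian hormones. Gjb2 read 61.0, 23.9 and 111 in control, 302, 149.6 and 284 in the single mutant, and 11.4, 11.8 and 90.9 in the double mutant. The single-mutant arrays lay above all others, and replicate 3 of the double mutant stood apart from replicates 1 and 2. The log2 change was 2.10 against control (SE 0.77, adjusted p = 0.177, limma), and Gjb2 fell by 3.34 on the log2 scale to the double mutant (adjusted p = 0.0305, limma). Gja1, which encodes connexin 43 of stroma and muscle as well, read 837 to 1188, with log2 changes of -0.09 and 0.09 against control (adjusted p = 0.804 and 0.939, limma). Gjb1, which encodes connexin 32, read 4.43 to 6.11, below the median of every array.

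The genes of apical polarity and sorting all fell to the double mutant, where 3.75% of all genes were decreased. Crb3, which encodes the epithelial Crumbs protein that marks the apical membrane, read 38.3, 51.5 and 48.5 in control, 75.9, 70.1 and 73.5 in the single mutant, and 42.9, 38.9 and 46.1 in the double mutant. Its arrays were close together within each group, and those of the single mutant lay above all others. Crb3 rose by a log2 change of 0.68 (SE 0.12, adjusted p = 0.0222, limma) and fell by 0.78 (adjusted p = 0.00755, limma). Pard6b, which encodes a subunit of the apical Par complex, read 8.63, 6.96 and 11.6 in control, 11.2, 15.7 and 18.5 in the single mutant, and 5.25, 7.07 and 7.16 in the double mutant. Control and the single mutant overlapped, at levels near the median of the arrays. Pard6b fell by 1.20 on the log2 scale to the double mutant (adjusted p = 0.0137, limma), and its log2 change in the single mutant was 0.74 (adjusted p = 0.105, limma).

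Mal2, which encodes a membrane protein of apical transcytosis, had the greatest log2 changes of the 38 genes in the single mutant against control and between the mutants. It read 15.1, 5.33 and 51.6 in control, 140.4, 100.2 and 155 in the single mutant, and 5.87, 4.97 and 39.5 in the double mutant. The single-mutant arrays lay above all others, and replicate 3 was by far the highest in both other groups. The log2 change of 3.01 against control was not called (SE 0.86, adjusted p = 0.0882, limma), and Mal2 fell by 3.63 to the double mutant (adjusted p = 0.0337, limma). Several of its values lay below the median of the arrays, where signal over background was not judged, so its fold changes are not exact.

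In the double mutant against control, 0 of the 38 genes were increased, where 0.209% of all genes were, and 0 were decreased, where 0.198% of all genes were (limma). At an unadjusted p under 0.05 there were 3 (limma), namely Cldn10, Cldn8 and Ppl, where 1446 of all 18193 genes passed that limit. The two-tailed test that the methods name for a pair of groups gave 1 at that limit with a 1.5-fold change. The share of all genes under that test is not given here, so this count cannot be set against it. The median log2 change was -0.15, over a range of -1.24 to 0.47, and 26 of 38 genes were below 0. Every array was higher than control for 1 gene, Ppl, against 6.54% of all genes, and lower for 2, Cldn10 and Tjp1, against 5.30%. The absence of calls does not show equal levels. The 95% confidence interval lay inside a 1.5-fold change either way for 14 of the 38 genes, where it did for 14548 of all 18193 genes. These 14 held Cldn6, Pkp1 and Gjb1, which read below the median of every array. Where the interval was wide, a change could not be detected with this number of arrays. For Cldn7 it ran from -0.47 to 0.71 on the log2 scale, for Cdh1 from -0.55 to 0.29, and for Crb3 from -0.38 to 0.17, while for Perp it ran from -1.18 to 0.71 and for Mal2 from -2.53 to 1.30.

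**Figure D3:**
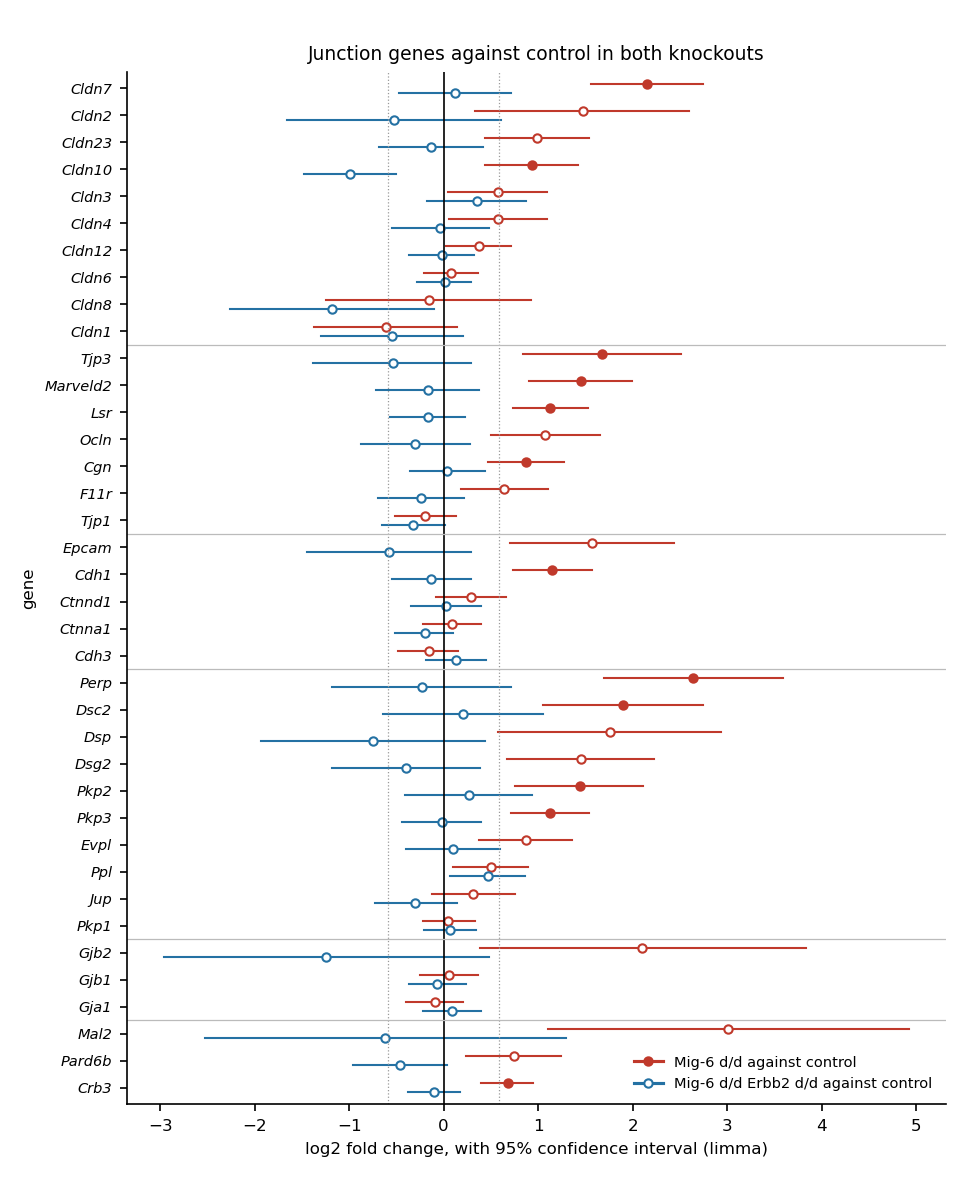
Log2 fold change against control of each junction gene in the single mutant (red) and in the double mutant (blue), with 95% confidence intervals from limma. Filled points were called, dotted lines mark a 1.5-fold change, and both comparisons use the same control arrays. All 12 filled points are red and above 0, and the blue points lie between -1.24 and 0.47.

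For other genes of the same junctions the median change in the single mutant was near 0. Of 87 further junction genes listed, 74 were measured, and their median log2 change in the single mutant was -0.05. Below the median of every array read Cldn9, Cldn11, Cldn13, Cldn14, Cldn16, Cldn18 and Cldn19, as well as Crb1, Ctnna2 and Ctnna3. The same held for Dsg1a, Dsc1, Dsc3, Cdsn, Gja3, Gja5, Gjb5, Gjb6, Gjc3 and Gjd2. The median change thus includes many genes at low levels, where signal over background was not judged. Of the 74, 4 were increased, where 2.54% of all genes were, and 2 were decreased, where 1.80% of all genes were (limma). The 4 were Marveld3, which belongs to the occludin family, Igsf5, a tight junction adhesion gene, Nectin4, an adhesion gene of adherens junctions, and Lin7c, of the Lin7 polarity scaffolds. Marveld3 read 26.2, 23.1 and 61.8 in control, 120.2, 75.8 and 143 in the single mutant, and 21.0, 21.9 and 32.0 in the double mutant. The log2 change in the single mutant was 1.71 for Marveld3 (adjusted p = 0.0342, limma), 1.56 for Igsf5 (adjusted p = 0.00612), 1.11 for Nectin4 (adjusted p = 0.0134) and 0.60 for Lin7c (adjusted p = 0.0374). The 2 decreased genes were Cldn5 and Cdh5, which encode the claudin and the cadherin of endothelial cells, and they fell by 0.77 and 0.88 on the log2 scale (adjusted p = 0.0426 and 0.0159, limma).

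From the single mutant to the double mutant, 6 of the 74 fell, where 3.75% of all genes did, and 4 rose, where 3.73% did (limma). The median log2 change of the 74, those at low levels included, was 0.01. Those that fell were Marveld3, Igsf5, Nectin4, Llgl2, a gene of basolateral polarity, Mal, a sorting gene related to Mal2, and Plekha7, of the epithelial adherens junction, by 0.88 to 2.16 on the log2 scale. Those that rose were Lin7a, Lin7b, Cdh5 and Cdh6, a type II cadherin, by log2 changes of 1.03, 0.96, 0.69 and 0.98. Against control, 0 of the 74 were called in the double mutant (limma). At an unadjusted p under 0.05 there were 7, where 1446 of all 18193 genes passed that limit.

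Markers of epithelial cells moved with the junction genes. Of 25 epithelial markers that are not junction genes, 15 were increased in the single mutant, where 2.54% of all genes were, and 0 decreased (limma). Their median log2 change was 1.23. From there to the double mutant 20 markers were decreased, where 3.75% of all genes were, with a median of -1.34 (limma). Those with the smallest p in the single mutant were Wfdc2, a secreted protein gene, Grhl2, a transcription factor of epithelia, Rab25, an apical recycling gene, and Tmem30b, with log2 changes of 1.29, 1.18, 1.34 and 1.94. Relative to the control mean, the mean log2 intensity of these markers was -0.23, -0.29 and 0.52 in control replicates 1 to 3, 1.33, 0.97 and 1.35 in the single mutant, and -0.43, -0.20 and 0.13 in the double mutant. The same measure over the 38 junction genes was -0.02, -0.36 and 0.38, then 0.96, 0.77 and 0.99, then -0.46, -0.21 and 0.01. In both lists control replicate 3 was the highest control array, single-mutant replicate 2 the lowest of its group, and replicate 3 the highest of the double mutant.

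Markers of the other tissue layers were lower in the single mutant. All 16 stromal markers had negative log2 changes, with 5 decreased and a median of -0.60 (limma). The same held for all 10 smooth muscle markers, with 1 decreased and a median of -0.64. It also held for all 12 endothelial markers, with 4 decreased and a median of -0.67 (limma). Of all genes, 1.80% were decreased. The stromal genes with the smallest p were Nr2f2, Zeb1 and Dpt, at log2 changes of -0.77, -0.74 and -0.64. Of 11 leukocyte markers 7 had log2 changes above 0 and 4 below, with a median of 0.01. Of these 1 was decreased, the macrophage receptor gene Csf1r (limma). Another macrophage marker, Cd68, was higher in every single-mutant array than in control. Its log2 change of 1.14 was not called (adjusted p = 0.143, limma). Of 7 markers of the preimplantation embryo 0 were called and 0 had an unadjusted p under 0.05 (limma). All 7 had intervals inside 1.5-fold, where 12217 of all 18193 genes did. The pluripotency gene Pou5f1 read 3.87 to 5.11, below the median of every array. Markers of mesothelium and of ovary and oviduct had median log2 changes of -0.17 and 0.02 in the single mutant, with 0 called of 5 and of 6. The part of tissue make-up in the junction gene changes was not tested.

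**Figure D4:**
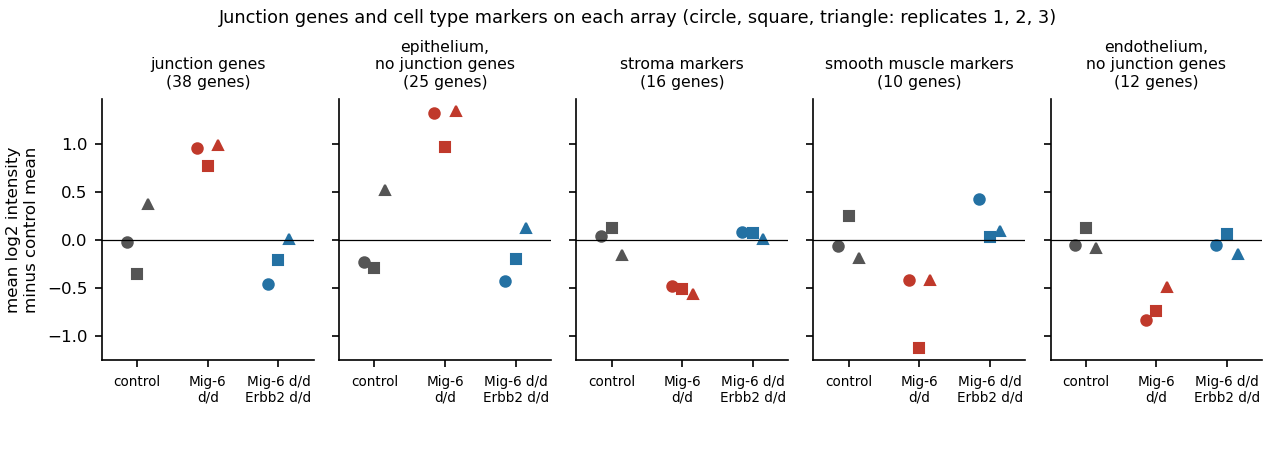
Mean log2 intensity of the junction genes and of marker lists for epithelium, stroma, smooth muscle and endothelium on each array, minus the control mean of each list. Points are arrays, with circle, square and triangle for replicates 1, 2 and 3. Junction genes and epithelial markers lie above control in all 3 single-mutant arrays, at 0.77 to 0.99 and 0.97 to 1.35, and the other 3 lists lie below it.

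Set beside the epithelial markers, the junction genes spread in both directions. Of the 38 genes, 12 had a log2 change in the single mutant above the epithelial median of 1.23. The difference from that median was greatest for Mal2 (1.78), Perp (1.41) and Cldn7 (0.92). When each junction gene was expressed relative to the mean of the epithelial markers on the same array, these 3 genes were the ones whose single-mutant arrays all lay above control, where this held for 0.385% of all genes. On that scale a gene that does not change lies below control, since the mean of the markers was higher in all 3 single-mutant arrays, and 87.0% of all genes did so without overlap. Of the 38 junction genes 16 did, namely Cldn1, Cldn6, Cldn8, Cldn12, Tjp1, Cgn, F11r, Cdh3, Ctnnd1, Ctnna1, Jup, Pkp1, Evpl, Gjb1, Gja1 and Pard6b. Between the mutants, 6 genes lay lower in every array of the double mutant on that scale, namely Cldn7, Epcam, Dsp, Dsg2, Perp and Mal2, against 0.440% of all genes. Another 15 lay higher, namely Cldn6, Cldn12, Tjp1, Cgn, F11r, Cdh3, Ctnnd1, Ctnna1, Jup, Pkp1, Ppl, Evpl, Gjb1, Gja1 and Crb3, against 95.0% of all genes. In the double mutant against control, Cldn10 was the 1 gene that lay lower, against 0.676% of all genes, and Evpl the 1 that lay higher, against 1.81%. These values are a description with no test.

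Single arrays stood above or below the others of their group for many of the genes at once. In control, replicate 3 was the highest array for 29 of the 38 genes and replicate 2 the lowest for 26. In the single mutant, replicate 2 was the lowest array for 24 genes and the highest for 9, which were Cldn1, Cldn3, Cldn4, Cldn6, Cldn10, Cldn12, Cldn23, Ppl and Gja1. Within that group, replicate 2 differed from the mean of the other 2 arrays by a log2 value of 0.71 for Cldn3, 0.81 for Cldn4, 0.62 for Cldn10 and 0.62 for Cldn23, and of -1.08 for Tjp3, -1.08 for Dsp, -0.97 for Gjb2 and -0.73 for Perp. In the double mutant, replicate 3 was the highest array for 23 genes, by a log2 value of 2.97 over the mean of the others for Gjb2 and 2.87 for Mal2.

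Several of the genes had more than 1 probe set. The 38 genes had 78 probe sets, of which 20 were increased in the single mutant and 32 were decreased from there to the double mutant (limma). The share of all probe sets with a call is not given here, so these counts cannot be set against it. In 0 genes did probe sets disagree in the direction of a call. Dsg2, Ocln and Pard6b, without a call in the single mutant at the probe set read, were increased at another one, at log2 changes of 1.61 and 1.56 for Dsg2, 0.97 for Ocln and 0.67 for Pard6b (adjusted p = 0.0484, 0.0268, 0.0405 and 0.0402, limma). Cgn, Lsr and Pkp3 were increased only at the probe set read, and their dimmer probe sets had mean intensities of 5.12, 3.76 and 4.77. Between the mutants, 6 genes were decreased only at the probe set read, namely Cgn, Cldn2, Epcam, F11r, Lsr and Pkp3 (limma). Their dimmer probe sets had log2 changes there of -0.08 for Cgn, 0.22 for Cldn2, -0.01 for Epcam, 0.07 for F11r, 0.18 for Lsr and -0.32 for Pkp3. The dimmer probe set had a mean intensity of 119.6 for Epcam, 12.6 for F11r and 5.67 for Cldn2.

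The counts of calls depended on single arrays, as did the shares of all genes called. Without the library labelled as single-mutant replicate 3, 1 of the 38 genes was increased in the single mutant against control, where 0.786% of all genes were, and 15 were decreased to the double mutant, where 2.15% were (limma). The median log2 changes of the 38 genes were then 0.76 and -1.02. Without single-mutant replicate 1 the counts were 1, against 0.742% of all genes, and 12, against 2.07%. Leaving out control replicate 3 gave 19 increased genes, against 2.64% of all genes, and leaving out control replicate 2 gave 6, against 0.731%. Without replicate 1 of the double mutant 9 were decreased, against 1.75% of all genes, and without its replicate 2 the count was 13, against 1.90%. Leaving out control replicate 1 gave 8 increased genes, against 3.24% of all genes. In each of these fits 0 of the 38 genes were called in the opposite direction. The genes decreased to the double mutant in all 9 fits were Cldn7, Cldn10, Marveld2, Tjp3, Cdh1, Pkp3, Perp, Crb3 and Lsr.

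**Figure D5:**
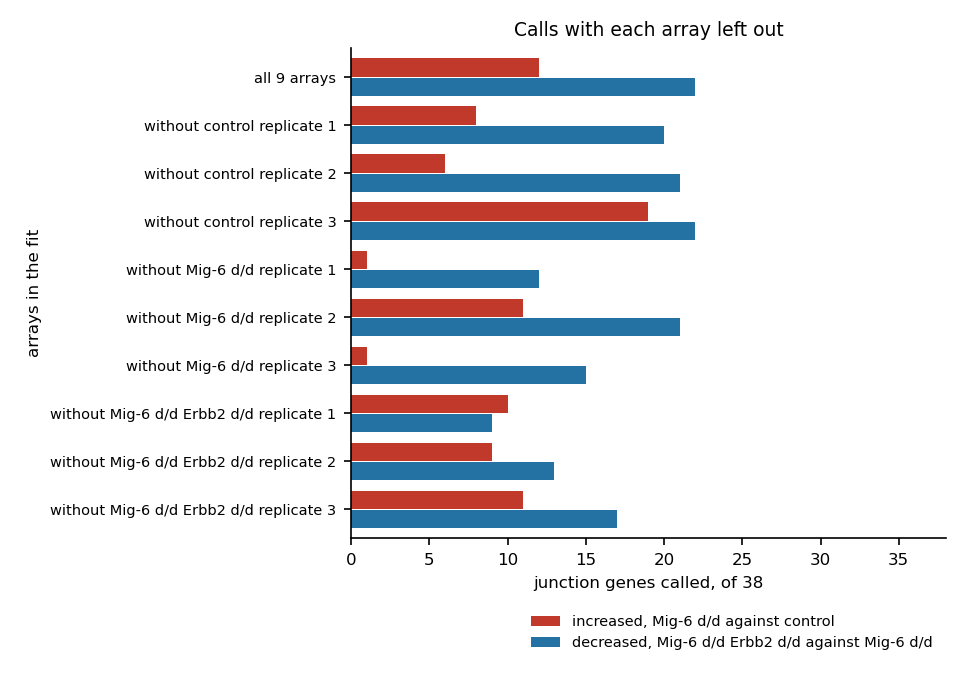
Number of the 38 junction genes increased in the single mutant against control (red) and decreased in the double mutant against the single mutant (blue) with all 9 arrays and with each array left out. The increased count runs from 1 to 19 and the decreased count from 9 to 22.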

How the data were processed

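Uteri of 3 groups of mice on GD 3.5 were hybridised to 9 Affymetrix mouse genome arrays, 3 per group, assigned by the genotype in the labels. The authors deposited intensities on a linear scale, after robust multi-array averaging (RMA) and quantile normalization in Bioconductor, whose versions are not given in the sources used here. They ranged from 2.11 to 11548.76 and were turned into log2 values here. Without scanner files or detection calls, signal over background was not judged. Precision is limited by having 3 arrays per group.

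Of 45037 probe sets, the platform annotation gave 34945 a single symbol, 932 several and 9160 none. RefSeq (GRCm38.p6) held 34741 of the single symbols, changed 0, and served for names, neighbours and promoter windows. For each of 18193 genes the brightest probe set by mean log2 intensity was used. The 38 genes, the 87 other junction genes, of which Pals1 is listed on the arrays as Mpp5, and the 8 marker lists (92 of 93 genes measured) were chosen with earlier results of these data known, so counts over them are descriptions.

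Testing used limma 3.58.1 (lmFit, eBayes; statmod 1.5.0) in R 4.3.3, with 3 groups in 1 model, 3 comparisons, Benjamini-Hochberg adjustment over probe sets, an adjusted p under 0.05 and a 1.5-fold limit. The methods give a two-sample comparison with that fold limit for the arrays. For the study in general they name, at p under 0.05, a two-tailed unpaired t-test for a pair of groups. For more groups they name an analysis of variance with Tukey tests, which was not run here. The t-test served as an alternative, named the methods' t-test below. The script was tested on simulated data. Every gene of the 38 is named, with values per array where any comparison called it, as are other junction genes with a call and up to 4 markers per list with the smallest p. Pgr, Esr1, Csf1r, Cd68, Pou5f1 and the ranges of uncalled genes that are not claudins were added after their values were seen. So were the further junction genes named for low levels. Other settings tried were leaving out dim probe sets, repeating the quantile normalization, centring arrays on their medians, another variance prior, fits of 6 arrays, weights for arrays, a block for the replicate number, leaving out each array, other thresholds, 8 added before the log, adjustment over genes, and other probe sets of a gene. Python 3.11.15 with matplotlib 3.10.9 drew the figures.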

Additional observations from a re-analysis of the deposited data

How the results depend on the processing

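Over 24 alternatives, 9 of which left out an array, 0 called changes of a named gene reversed. Of 3585 values of single genes under them, 265 lost a call and 70 gained one, and 58 changed sign with a call in neither setting. With each array left out in turn, 1 to 19 junction genes were increased and 0 decreased in the single mutant against control, 0 got a call in the double mutant against control, and 9 to 22 were decreased between the mutants. Of the other junction genes, 1 to 7 were increased and 0 to 4 decreased in the single mutant, and 0 to 5 were increased and 4 to 9 decreased between the mutants. With only the 6 arrays compared, 5 junction genes were increased in the single mutant, and of the other junction genes 2 were increased and 1 decreased there and 10 decreased between the mutants. The methods' t-test after Benjamini-Hochberg adjustment called 0 junction genes in the single mutant and 1 between the mutants, and 0 of the other junction genes in any direction; unadjusted, it gave 1 decreased junction gene in the double mutant (against control), and for the other junction genes 6 decreased in the single mutant and 11 between the mutants. Adding 8 before the log gave 7 increased and 14 decreased junction genes in these comparisons, and of the other junction genes 1 increased and 1 decreased in the single mutant and 2 increased between the mutants. The 2 to 4 further junction genes called in a direction moved easily. Those decreased in the single mutant numbered 5 without dim probe sets, 4 after quantile normalization again, 1 after centring on array medians, 4 with a trended and robust variance, 4 with no fold limit, 0 with a 2-fold limit, 5 with adjustment over genes and 1 with probe sets of a gene averaged. Those increased in the single mutant numbered 7 with adjustment over genes. Those increased between the mutants numbered 7 with no fold limit, 1 with a 2-fold limit and 1 with probe sets of a gene averaged. The cause of these differences was not tested. For alternatives other than leaving out an array, the share of all genes called is not given here. Their counts, above and below, can therefore not be set against such a share. Same-numbered arrays did not deviate together throughout, with correlations of -0.133 to 0.203 between deviations from the group means, and of 18 sets of an array and another group 6 had the best match at the same number, so the numbers were not taken to pair the arrays. With the replicate number as a block (replicate block), 18 junction genes were increased in the single mutant and 23 decreased between the mutants, and of the other junction genes 4 were increased and 3 decreased in the single mutant and 5 increased and 6 decreased between the mutants.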
